A study of Mus musculus with 12 samples.

Results

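Potassium channel transcripts were followed in mouse pancreatic cells sorted at E17.5, late in gestation. The 8 genes described were picked by name, with earlier results of these data known: Abcc8, Kcnj11, Kcnk3, Kcnk16, Kcnma1, Kcnh6, Kcnj13 and Kcnq1. All 8 are among the 55417 genes of the deposited table, and all 8 passed the filter on low counts that left 17230 genes. All embryos were of the genotype Gcg-Timer, a fluorescent Timer reporter of Gcg, the glucagon gene. Dissociated pancreas was separated by flow cytometry into 3 groups of 4 libraries each. Group N held non-α cells, group A held green dominant cells, labelled as newly generated α cells, and group B held cells both green and red, labelled as more differentiated α cells. Replicates 1 to 4 came from different mothers, and the labels do not give the number of embryos behind a library, their sex or the strain. Levels are normalised read counts (CPM, scaled by TMM factors). A gene was called when its edgeR quasi-likelihood p, adjusted by the Benjamini-Hochberg method over 17230 genes, was under 0.05.

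The N libraries held 32114292 to 38545756 counts, the A libraries 18168677 to 25873635 and the B libraries 16216967 to 24259218. Summed over 8 α cell markers, levels lay between 509 and 686 CPM for N, between 17300 and 28100 CPM for A and between 40700 and 58100 CPM for B. Most of the sum in A and B was Gcg, with means of 15400 and 37300 CPM against 102 CPM in N. Since the sort used a reporter of Gcg, the order of these sums is no independent check of the labels. Gc, another of the 8, had its highest mean in N (98.9 CPM, against 37.6 in A and 56.6 in B). Markers of other cells were present as well. The sum of 10 β cell markers lay between 3610 and 8160 CPM for N. It lay between 5020 and 19200 CPM for A and between 4000 and 4630 CPM for B. That of 10 acinar markers lay between 64300 and 120000 CPM for N, 19700 and 33000 CPM for A, and 11200 and 28500 CPM for B. That of 6 erythroid markers was 75800 to 292000 CPM for N, 302 to 1890 CPM for A and 243 to 827 CPM for B. A change against N is therefore a contrast with a mixture of cells. Each library is bulk RNA, so fewer cells of a type and less RNA per cell cannot be told apart.

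Potassium channels let potassium leave the cell and hold the membrane potential near rest. In islet cells the ATP-sensitive channel (KATP) couples metabolism to that potential: it is built from the pore Kir6.2, encoded by Kcnj11, and the sulfonylurea receptor SUR1, encoded by Abcc8, and it closes as ATP rises. Channels of the two-pore domain family carry background currents, and voltage-gated and calcium-activated channels repolarise the membrane after an action potential. Glucagon release from α cells depends on electrical activity shaped by these currents.

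Promoter sequences were on hand for 4 of the 8 genes, from 250 bases before to 50 after the annotated start (RefSeq, GRCm38.p6). The 3 printed here, each 5′ to 3′ on the gene's strand, belong to Kcnj13, the gene called between the α cell groups, to Kcnh6, which had the highest log2 change against non-α cells, and to Kcnk16, which had the second highest level per length. Capitals mark E-box letters (CAGCTG, the same on both strands, and the variant CAGATG) and TATA box letters (TATAAA), where a search of both strands found them.
Kcnj13, chr1:87394680-87394979, minus strand: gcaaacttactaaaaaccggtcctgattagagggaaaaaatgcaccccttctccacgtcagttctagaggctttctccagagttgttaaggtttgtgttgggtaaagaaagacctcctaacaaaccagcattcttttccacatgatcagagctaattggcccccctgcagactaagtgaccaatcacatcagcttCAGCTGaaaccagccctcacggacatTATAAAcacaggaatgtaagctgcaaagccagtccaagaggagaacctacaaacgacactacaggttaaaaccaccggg
Kcnh6, chr11:106007898-106008197, plus strand: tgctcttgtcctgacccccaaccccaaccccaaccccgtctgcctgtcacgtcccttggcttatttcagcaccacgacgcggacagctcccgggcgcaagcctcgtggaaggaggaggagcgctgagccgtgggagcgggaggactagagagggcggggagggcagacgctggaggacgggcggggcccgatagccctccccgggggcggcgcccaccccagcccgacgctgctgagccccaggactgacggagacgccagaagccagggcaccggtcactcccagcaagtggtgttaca
Kcnk16, chr14:20269220-20269519, minus strand: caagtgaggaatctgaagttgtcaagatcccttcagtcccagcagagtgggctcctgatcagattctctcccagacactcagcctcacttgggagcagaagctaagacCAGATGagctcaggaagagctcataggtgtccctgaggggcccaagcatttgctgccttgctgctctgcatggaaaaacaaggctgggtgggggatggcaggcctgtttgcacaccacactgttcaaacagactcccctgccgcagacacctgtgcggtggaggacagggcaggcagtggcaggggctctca

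The Kcnj13 window held CAGCTG 55 bases before the start and TATAAA 29 bases before it, which were found in 16.3% and 13.6% of 32851 promoter windows of the same length. The Kcnk16 window held CAGATG 142 bases before the start, found in 17.2% of windows. Neither the Kcnh6 nor the Kcnma1 window held any of the letters searched, which also included TGTTTAC (forkhead, in 3.65% of windows), TAATTA (homeobox, in 5.29%) and TGACGTCA (cyclic AMP response element, in 1.79%). GC content was 46.0% for Kcnj13, 57.0% for Kcnk16, 69.3% for Kcnh6 and 78.0% for Kcnma1, with a median of 52.7% over all windows.

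Of these 8 genes, 7 stood far higher in newly generated α cells than in non-α cells, and 6 of them were also called higher in the more differentiated cells than in non-α cells. Kcnj13 rose in A and was low again in B, and Kcnq1 was highest in N. In A against N, 7 of the 8 genes were called higher and 1 lower, where 23.8% of all genes tested were called higher and 21.3% lower (45.1% in all). In B against N, 6 were called higher and 1 lower, where 29.7% and 30.5% of all genes were (60.2% in all). In B against A, 0 were called higher and 1 lower, where 4.63% and 9.12% of all genes were (13.7% in all), so the share of the 8 genes called between the α cell groups was near the background. Groups did not overlap for 7 genes higher in A than in N (22% of all genes, and 21.3% lower), for 6 genes higher and 1 lower in B than in N (28.8% and 29.5% of all genes), and for 1 gene lower in B than in A (9.28% of all genes, and 9.67% higher). DESeq2 also called 0 of the 8 higher in B than in A, where it called 1209 of 17230 genes higher. Among members not called by edgeR there, the 95% interval lay above 0 for Kcnma1 (0.03 to 0.61). It lay below 0 for Kcnq1 (-1.55 to -0.02). These intervals are not adjusted for the number of genes, and the share of all genes with such intervals was not counted. Each group enters more than 1 comparison, so the comparisons share libraries. Because the 8 genes were chosen with earlier results known, their shares beside the background do not measure an enrichment of channel genes.

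**Figure D1:**
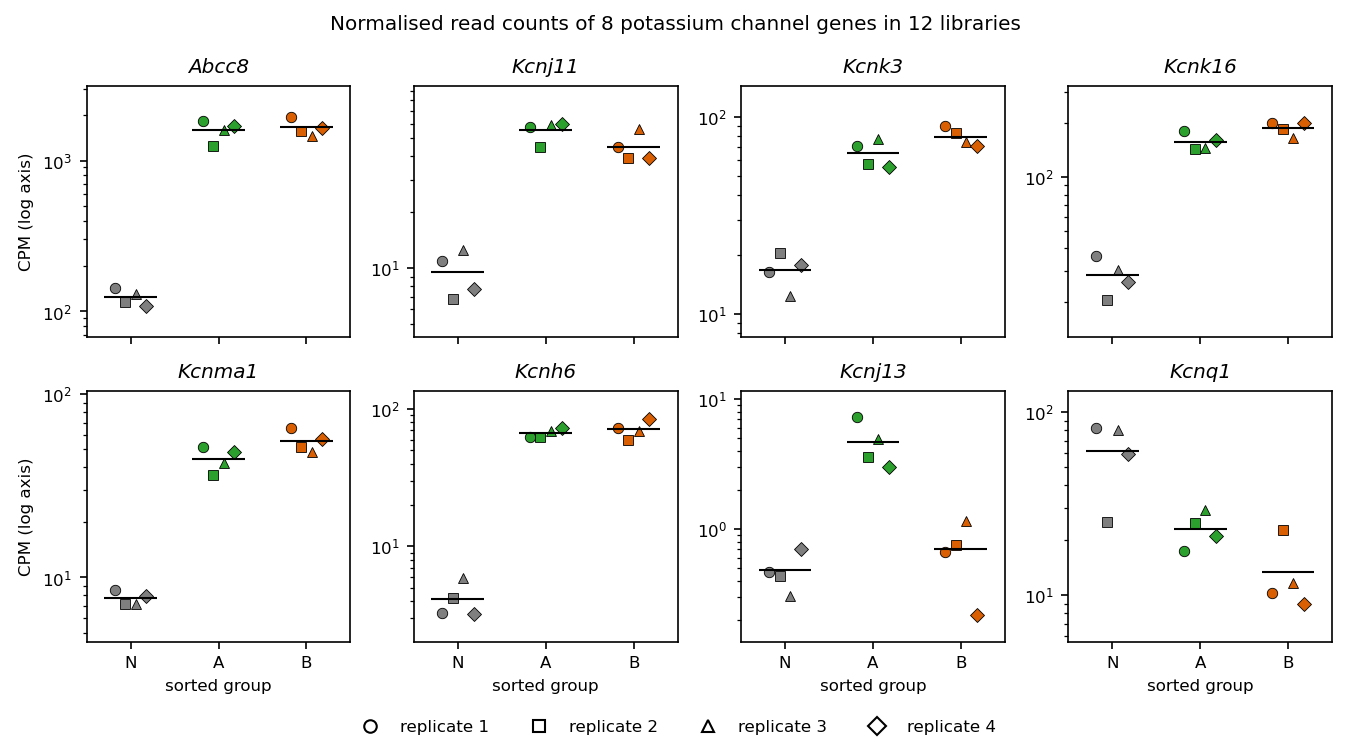
Normalised read counts (CPM, log axis, a separate scale in each panel) of the 8 genes in each of the 12 libraries, by sorted group. Points are libraries with a marker shape for each replicate number, and bars are group means. Abcc8 stands at 109 to 144 CPM in N and above 1200 CPM in every A and B library, Kcnj13 is high in A alone, and Kcnq1 is lowest in B.

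The KATP genes come first. Abcc8 (ENSMUSG00000040136.11, GRCm39 chromosome 7, 45753947 to 45829457, minus strand) and Kcnj11 (ENSMUSG00000096146.3, chromosome 7, 45743377 to 45750188, minus strand) are neighbours, with 3758 bases between them and 0 shared exonic bases in the GRCm38 annotation. Abcc8 was at 144, 115, 131 and 109 CPM in N replicates 1 to 4, at 1820, 1240, 1600 and 1690 CPM in A, and at 1950, 1580, 1460 and 1650 CPM in B. Every A and B library lay far above every N library, and A and B overlapped. The rise from N to A was 12.8-fold (log2 change 3.67, SE 0.16, adjusted p = 3.58e-09), in 4 of 4 replicate pairs. From A to B the log2 change was 0.06 (SE 0.15, 95% interval -0.26 to 0.38, adjusted p = 0.834).

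Kcnj11 was at 10.9, 6.85, 12.5 and 7.76 CPM in N, at 57.8, 45, 59.3 and 59.8 CPM in A, and at 44.7, 39.2, 56.4 and 39 CPM in B. Again N lay below both α cell groups, and A and B overlapped, with B lower than A in all 4 replicate pairs. Kcnj11 rose 5.84-fold from N to A (log2 change 2.55, SE 0.2, adjusted p = 4.97e-07) and its level in B against A was not called (log2 change -0.31, SE 0.19, 95% interval -0.71 to 0.1, adjusted p = 0.316). Beside it, 5 of 10 β cell markers were called lower in B than in A and 0 higher, and none was at 0 in all libraries of a group; their part in the Kcnj11 values was not tested.

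The ratio of the subunits needs no scaling between libraries. Kcnj11 counts were 7.56%, 5.98%, 9.55% and 7.11% of Abcc8 counts in N, 3.18%, 3.62%, 3.69% and 3.53% in A, and 2.29%, 2.49%, 3.86% and 2.37% in B. Every A library lay below every N library, and 3 of the 4 B libraries lay below every A library. From N to A the mean went from 7.55% ± 1.49 to 3.5% ± 0.229 (SD, 4 libraries each), a log2 difference of -1.09. That difference gave the smallest p the 70 splits allow (exact two-sided permutation test, p = 0.0286, adjusted p = 0.0571 over the 2 comparisons). At this floor the adjusted p could fall under 0.05 only if the other comparison also had p under 0.05. It therefore does not weigh the N and A ratios alone. From A to B, where the mean in B was 2.75% ± 0.742, the log2 difference was -0.38 (p = 0.143 by the same exact permutation test, adjusted p = 0.143). B replicate 3 decided that call: without it the difference was -0.55 (exact permutation, adjusted p = 0.0286, the smallest p that 3 against 4 libraries allow).

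**Figure D2:**
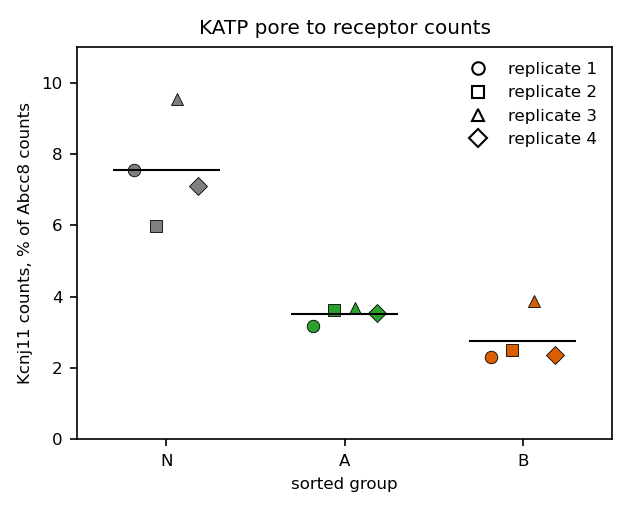
Kcnj11 counts as a percentage of Abcc8 counts in each library (linear axis from 0), by sorted group. Points are libraries, with marker shapes for replicate numbers, and bars are group means of 7.55%, 3.5% and 2.75%; B replicate 3 at 3.86% lies apart from the other B libraries.

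Kcnk16 and Kcnk3 encode two-pore domain channels, TALK-1 and TASK-1, which carry background potassium current. Kcnk16 (ENSMUSG00000023387.9, GRCm39 chromosome 14, 20311444 to 20319267, minus strand) was at 36.4, 20.6, 30.5 and 26 CPM in N, at 181, 144, 146 and 161 CPM in A, and at 202, 185, 166 and 201 CPM in B. It was the gene with the narrowest spread in B (coefficient of variation 8.87%), and B exceeded A in 4 of 4 pairs although the groups overlapped. Its level rose 5.57-fold from N to A (log2 change 2.48, SE 0.16, adjusted p = 8.11e-08), and in B against A it was not called (0.25, SE 0.15, 95% interval -0.07 to 0.58, adjusted p = 0.301).

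Kcnk3 (ENSMUSG00000049265.9, chromosome 5, 30745514 to 30782615, plus strand) was at 16.3, 20.4, 12.3 and 17.7 CPM in N, at 70.9, 57.5, 76.6 and 55.4 CPM in A, and at 89.2, 82.2, 74.3 and 70.9 CPM in B. N lay apart from both other groups, which overlapped. This was the smallest of the 7 rises from N to A, at 3.91-fold (log2 change 1.97, SE 0.16, adjusted p = 7.88e-07). In B against A the log2 change was 0.28 (SE 0.16, 95% interval -0.05 to 0.62, adjusted p = 0.257).

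Kcnma1 encodes the pore of the BK channel, opened by calcium and depolarisation, and Kcnh6 encodes an ERG-type voltage-gated channel. Kcnma1 (ENSMUSG00000063142.16, chromosome 14, 23339499 to 24064559, minus strand) was at 8.53, 7.17, 7.15 and 7.89 CPM in N, at 51.4, 36.1, 41.9 and 48.3 CPM in A, and at 65.1, 51.6, 48.2 and 56.9 CPM in B. N was narrow and low, and B exceeded A in all 4 pairs while the groups overlapped. In the GRCm38 annotation 1016 of its 16976 exonic bases also belong to 4930519K11Rik, so that part of its counts is uncertain. The rise from N to A was 5.77-fold (log2 change 2.53, SE 0.15, adjusted p = 2.66e-08). From A to B it was 1.25-fold (log2 change 0.32, SE 0.14, 95% interval 0.03 to 0.61), not called at adjusted p = 0.138 but called with the replicate number as a block (0.32, adjusted p = 0.0437).

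Kcnh6 (ENSMUSG00000001901.16, chromosome 11, 105898950 to 105925375, plus strand) was at 3.29, 4.2, 5.92 and 3.24 CPM in N, at 63.1, 62.2, 69 and 72.8 CPM in A, and at 73.2, 60, 69.7 and 84.8 CPM in B. It had the largest rise of the 8 genes, 16.1-fold from N to A (log2 change 4.01, SE 0.2, adjusted p = 6.44e-09) and 17.3-fold from N to B (4.11, adjusted p = 2.73e-09). A and B overlapped, with a log2 change of 0.11 (SE 0.17, 95% interval -0.26 to 0.47, adjusted p = 0.738).

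Kcnj13 encodes Kir7.1, an inward rectifier best known from retinal pigment epithelium and choroid plexus. It was the gene with the lowest counts of the 8. Kcnj13 (ENSMUSG00000079436.4, chromosome 1, 87314085 to 87322451, minus strand) was at 0.47, 0.436, 0.306 and 0.706 CPM in N, at 7.26, 3.58, 4.97 and 3 CPM in A, and at 0.667, 0.75, 1.15 and 0.217 CPM in B. A had 76 to 155 estimated counts per library, N 8 to 22 and B 4 to 30, and the A libraries lay above all 8 others. Its level rose 9.67-fold from N to A (log2 change 3.27, SE 0.51, adjusted p = 0.000224) and was 6.63-fold lower in B than in A (log2 change -2.73, SE 0.5, 95% interval -3.8 to -1.66, adjusted p = 0.00339), in 4 of 4 pairs each time. B against N was not called (0.54, SE 0.5, 95% interval -0.52 to 1.61, adjusted p = 0.36). The call in B against A was made whichever library was left out, with log2 changes from -3.07 to -2.44.

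Other values were also lower in B than in A. The summed level of Ppy and Ghrl, hormone genes of PP and ε cells, lay between 32.3 and 50.4 CPM for N, 663 and 992 CPM for A, and 213 and 389 CPM for B, and both genes were called lower in B than in A. Both were still called higher in B than in N (log2 change 2.55 for Ppy and 3.06 for Ghrl), where Kcnj13 was not. Of the A libraries, replicate 4 was highest for that sum and lowest for Kcnj13. β cell markers were highest in A replicate 2, at 19200 CPM, while Kcnj13 was highest in A replicate 1. Other sums varied as Kcnj13 did. That of 4 δ cell markers was highest in A replicate 1 (2330 CPM) and, within B, in replicate 3 (2030 CPM). Endothelial sums were 237, 106, 126 and 46.7 CPM in A replicates 1 to 4, in the same order as Kcnj13 there. The part of these cells in the Kcnj13 values was not tested. In the GRCm38 annotation 623 of the 1270 exonic bases of Kcnj13 also belong to Gigyf2 on the other strand, and the sources used here do not say whether counting used strand, so the Kcnj13 counts are uncertain. Gigyf2 itself averaged 56.2 ± 7.19 CPM among N libraries, 47.2 ± 8.75 CPM among A libraries and 50.3 ± 6.82 CPM among B libraries (SD, n = 4). It was not called between N and A (adjusted p = 0.196) or between A and B (adjusted p = 0.749).

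Kcnq1 encodes Kv7.1, a voltage-gated channel of epithelia and heart that works with Kcne partners. It was the gene of the 8 with its highest mean in N. Kcnq1 (ENSMUSG00000009545.15, chromosome 7, 142660099 to 142980779, plus strand) was at 81.8, 25.3, 79.6 and 59.3 CPM in N, at 17.4, 24.7, 29.3 and 21 CPM in A, and at 10.3, 22.6, 11.7 and 8.93 CPM in B. N replicate 2 lay within the range of A, and B replicate 2 stood at 22.6 CPM, above the other B libraries.
Kcnq1 was 2.66-fold lower in A than in N (log2 change -1.41, SE 0.35, adjusted p = 0.00565) and 4.59-fold lower in B than in N (-2.2, SE 0.36, adjusted p = 0.000162), each in 4 of 4 pairs. With library totals alone and no scaling factors, its change from N to A was -0.83 (adjusted p = 0.0471). That setting moved the median of all genes by 0.57 in A against N. In the deposited TPM, Kcnq1 means lay closer, at 17.2 ± 8.24 for N and 13.3 ± 2.46 for A. There the A range (11.6 to 16.8 TPM) lay within the N range (5.44 to 24.7 TPM). Kcnq1 was not tested on TPM, and the size of its fall depends on the measure. B against A was not called (-0.79, SE 0.35, 95% interval -1.55 to -0.02, adjusted p = 0.161), except without B replicate 2 (-1.19, adjusted p = 0.0361).

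The libraries that stood apart for Kcnq1 did so for acinar markers too. N replicate 2 had the lowest acinar sum in N, 64300 CPM against 107000 to 120000 CPM, and B replicate 2 the highest in B, 28500 CPM against 11200 to 14400 CPM. Of the 10 acinar markers, 9 were called lower in A than in N, 9 lower in B than in N and 0 in B against A, and none was at 0 in all libraries of a group; their part in the Kcnq1 result was not tested. The antisense transcript Kcnq1ot1 shares 121 of the 4093 exonic bases of Kcnq1 in the GRCm38 annotation, and reads there cannot be told apart without strand. Kcnq1ot1 was at 16.3, 61.7, 19.1 and 20 CPM in N, 15.7, 20.4, 8.03 and 16 CPM in A, and 4.71, 10.2, 8.96 and 16.8 CPM in B. It was highest in N replicate 2, the N library with the least Kcnq1. Kcnq1ot1 was called lower in B than in N (log2 change -1.53, SE 0.46, adjusted p = 0.0115) and in neither other comparison.

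**Figure D3:**
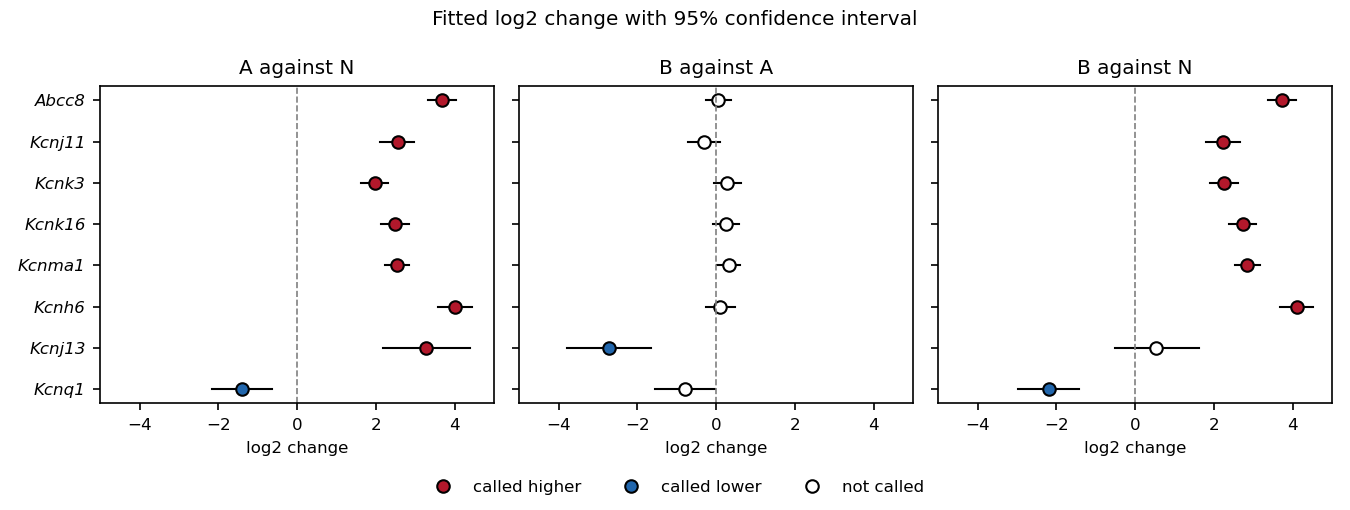
Fitted log2 change (points) of the 8 genes with 95% confidence intervals (lines) in the 3 comparisons, which share libraries; red points were called higher, blue lower and white not called. In B against A only Kcnj13 at -2.73 is called, and the 6 genes from Abcc8 to Kcnh6 lie between -0.31 and 0.32.

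Levels were compared between genes on the deposited TPM, which are per transcript length. Differences between N and A were not of the same size on this measure. Abcc8 means for these groups were 125 and 1590 as CPM, against 26.9 and 695 as TPM. Those of Kcnh6 were 4.16 and 66.8 as CPM, against 1.07 and 35.1 as TPM. In A, Abcc8 was highest at 695 ± 113 TPM (SD, n = 4) and Kcnk16 next at 291 ± 44.9 TPM, with ranges that did not overlap. Abcc8 ranked between 121 and 205 among all genes of an A library. Kcnh6 (35.1 ± 4.22 TPM), Kcnj11 (33.9 ± 5.4 TPM) and Kcnk3 (29.7 ± 5.78 TPM) followed with overlapping ranges, so their order is within their spread. Kcnma1 (21.3 ± 4.48 TPM) overlapped with Kcnk3 and with Kcnq1 (13.3 ± 2.46 TPM), and Kcnj13 was lowest at 6.84 ± 2.96 TPM.
Abcc8 at 746 ± 105 TPM and Kcnk16 at 348 ± 53.6 TPM also led in B, again with ranges that did not overlap. Kcnh6, Kcnk3, Kcnma1 and Kcnj11 overlapped there at 36.5 ± 6.85, 34.4 ± 3.64, 27.6 ± 5.19 and 26.5 ± 5.56 TPM, so their order is within their spread, and Kcnq1 and Kcnj13 were lowest at 7.11 ± 3.05 and 0.996 ± 0.543 TPM. In N the upper 3 were Abcc8 (26.9 ± 6.18 TPM), Kcnk16 (24.5 ± 8.09 TPM) and Kcnq1 (17.2 ± 8.24 TPM), with overlapping neighbours, and the other 5 were each under 5 TPM in every library.

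**Figure D4:**
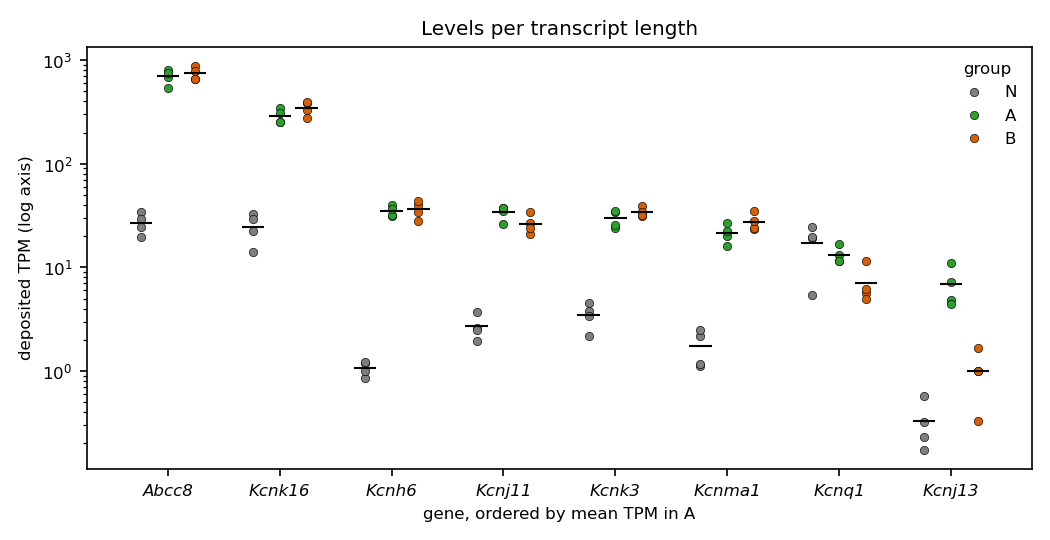
Deposited TPM (log axis) of the 8 genes in each library, ordered by mean TPM in A. Points are libraries, coloured by group, and bars are group means; Abcc8 and Kcnk16 lie above 250 TPM in all A and B libraries, and Kcnq1 is the gene with its highest mean in N.

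For each gene the most alike genes were taken by the root mean square distance of centred log2 CPM over the 12 libraries, among the genes with mean log2 CPM of at least 3. Of the 2 genes closest to Abcc8, the one given here is Scgn (distance 0.185), which encodes the calcium-binding protein secretagogin. Kcnk16 lay closest to Pde3b (0.126), a phosphodiesterase, and to Kcnma1 (0.162), 1 of the 8 genes itself. Kcnma1 lay closest to Sh3gl2 (0.134) and Suox (0.15), Kcnk3 to Klhl7 (0.173) and Usp35 (0.184), Kcnh6 to Slc7a14 (0.222) and Slc25a53 (0.232), and Kcnj11 to Ap1s2 (0.239) and Mid1ip1 (0.243). Kcnq1 lay closest to Cckar (0.175), the cholecystokinin A receptor, and Cbs (0.19). For Kcnj13 the closest genes were Pcsk1, a prohormone convertase, at 0.808 and Gm609 at 0.854. Kcnj13 itself lies below the level set for these genes, with 4 to 30 counts in B libraries, so genes at its own level were not compared and its distances are not set against those of the others.

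The wider set held 93 other potassium channel and partner genes, of which 92 were in the table and 64 were tested. In A against N, 19 of the 64 were called higher (29.7%, where 23.8% of all genes were) and 9 lower (14.1%, where 21.3% were), with a median log2 change of -0.01 against -0.02 over all genes. In B against N, 18 were called higher (28.1%, where 29.7% of all genes were) and 21 lower (32.8%, where 30.5% were). In B against A, 4 were called higher (6.25%, where 4.63% of all genes were) and 7 lower (10.9%, where 9.12% were), with a median of -0.36 against -0.01 over all genes. The shares of B against N and B against A lay near the background. The 8 genes themselves had medians of 2.54, 2.49 and 0.08 in the same 3 comparisons. By class, with few genes in each, the called genes of B against A were 2 higher and 2 lower of 17 voltage-gated genes, 1 higher of 8 two-pore genes, 2 lower of 7 inward rectifier and KATP genes, 1 lower of 7 calcium- and sodium-activated genes, and 1 higher and 2 lower of 17 auxiliary subunits.

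Of the BK β subunits, partners of Kcnma1, 2 were called higher in A than in N, where 23.8% of all genes tested were. Kcnmb1, a BK β subunit known from smooth muscle, averaged 0.798 ± 0.181 CPM among N libraries, 14.7 ± 4.12 CPM among A libraries and 22.9 ± 4.09 CPM among B libraries (SD, n = 4), and had the largest rise in the set from N to A (log2 change 4.2, SE 0.26, adjusted p = 5.76e-08) and from N to B (4.84, adjusted p = 1.1e-08). Smooth muscle and pericyte markers fell across the same groups, with sums of 210 to 333 CPM for N, 81.1 to 140 CPM for A and 14.4 to 40.9 CPM for B. The part of these cells in the Kcnmb1 values was not tested. In B against A, Kcnmb1 was not called by edgeR (0.64, adjusted p = 0.0734) and was by DESeq2 (adjusted p = 0.0459). Kcnmb2, another β subunit, rose between N and A, from 6.44 ± 1.49 to 39.8 ± 5.25 CPM (log2 change 2.63, SE 0.18, adjusted p = 1.16e-07) and stood at 33.7 ± 4.16 CPM in B. Kcnmb4 was called in no comparison, at 1.74 ± 0.504, 2.37 ± 0.631 and 2.15 ± 0.603 CPM, and Kcnmb3, with at most 2 counts in any library, was not tested.

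Of the Kcne genes, partners of Kcnq1, 2 were called lower in B than in N, where 30.5% of all genes tested were. Kcne3 averaged 3.23 ± 1.14, 1.14 ± 1.19 and 0.338 ± 0.331 CPM for N, A and B, and was called lower in B than in N (log2 change -3.2, SE 0.88, adjusted p = 0.00662). Kcne2 had at most 20 counts in any library and was called nowhere, and Kcne1, with at most 14 counts, was not tested. Kcne4 had 240 to 552 counts in N libraries, 116 to 216 in A and 0, 3, 0 and 0 in B replicates 1 to 4, and was called lower in B than in A (adjusted p = 0.000106) and than in N (adjusted p = 3.1e-07).

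Kcnj8 and Abcc9 encode Kir6.1 and SUR2, the KATP pair of vascular smooth muscle and pericytes, and they fell from N to A, where Abcc8 and Kcnj11 rose, and again from A to B, where neither of those was called. Kcnj8 was at 57, 93.4, 42 and 79.6 CPM in N, 27.9, 34, 16.1 and 21 CPM in A, and 1.78, 3.38, 2.96 and 1.57 CPM in B. The 3 groups did not overlap, and the log2 change was -1.46 (SE 0.29, adjusted p = 0.00141) from N to A and -3.34 (SE 0.33, adjusted p = 0.000207) from A to B.
Abcc9 was at 67.8, 77.5, 34 and 89.3 CPM in N, 13.9, 36.2, 9.49 and 17.7 CPM in A, and 2.71, 4.13, 1.92 and 5.03 CPM in B, with only A and N overlapping. It fell by 1.8 on the log2 scale from N to A (SE 0.4, adjusted p = 0.00298) and by 2.5 from A to B (SE 0.43, adjusted p = 0.00255). Marker genes of other cells fell beside Kcnj8, Abcc9 and Kcne4: 5 of 6 pericyte and smooth muscle markers and all 8 mesenchymal markers were called lower in B than in A, with a mesenchymal sum of 2440 to 9920 CPM for A and 389 to 1310 CPM for B, and none at 0 in all libraries of a group. Their part in these results was not tested.

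Among the other genes called higher in B than in A, Kcnk12 was clearest. Kcnk12, a two-pore domain gene (THIK-2), was at 0.868, 0.911, 0.841 and 0.545 CPM in N, 7.58, 6.41, 8.38 and 6.13 CPM in A, and 20.2, 16.8, 16.7 and 16.6 CPM in B. The 3 groups did not overlap at either step, with a log2 change of 3.17 (SE 0.22, adjusted p = 1.83e-07) from N to A and 1.3 (SE 0.2, adjusted p = 0.00143) from A to B. It was called in B against A whichever library was left out.
Kcnip3, a calcium-binding Kv4 partner, rose from 33.6 ± 9.97 CPM for A to 56.6 ± 8.38 CPM for B (log2 change 0.75, SE 0.22, adjusted p = 0.0344), and was lost without A replicate 2 or 3 or without B replicate 1, 3 or 4 (adjusted p at most 0.0972). Kcna5, the Kv1.5 channel, went from 7.87 ± 3.99 to 18.2 ± 3.42 CPM (1.21, SE 0.37, adjusted p = 0.0446) and kept its call only without A replicate 1, 3 or 4, with adjusted p at most 0.0999 otherwise.

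The other genes called lower in B than in A had at most 91 counts in a B library. Lrrc55, a BK auxiliary protein, had 40, 66, 50 and 3 counts in A and 0, 3, 1 and 0 in B (adjusted p = 0.00526). Kcnd3, the Kv4.3 channel, averaged 1.35 ± 1.42 CPM for A and 0.152 ± 0.121 CPM for B (log2 change -3.1, SE 0.83, adjusted p = 0.0255), and was not called with the replicate block (-2.82, adjusted p = 0.0708) or without A replicate 2 or 3 or B replicate 2 or 4 (adjusted p at most 0.0709). The remaining 2, named after their values were seen to complete the 7, were Kcna6 (log2 change -3, SE 0.7, adjusted p = 0.0129) and Kcnn4 (-1.61, SE 0.45, adjusted p = 0.0317), the calcium-activated channel of epithelia and blood cells. Kcna6 had 37 to 271 counts in A libraries and 0 to 35 in B libraries. Kcnn4 had 67 to 179 counts in A libraries and 18 to 91 in B libraries, and its CPM overlapped between A and B. Kcnn4 lost its call without A replicate 1, 2 or 3 or B replicate 1, 3 or 4 (adjusted p at most 0.0889).

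From N to A the largest rises after Kcnmb1 were those of Dpp10 and Dpp6, auxiliary proteins of Kv4 channels, and of Kcnk2, the two-pore channel TREK-1. Dpp10 went from 0.5 ± 0.234 to 8.55 ± 0.923 CPM (log2 change 4.09, SE 0.43, adjusted p = 7.95e-06) and Dpp6 from 1.56 ± 0.816 to 14.9 ± 4.34 CPM (3.25, SE 0.41, adjusted p = 4.07e-05). Kcnk2 went from 0.4 ± 0.2 to 3.75 ± 2.09 CPM (3.2, SE 0.53, adjusted p = 0.000351). Dpp10 and Dpp6 were also among the largest rises from N to B, at 4.36 and 3.86 on the log2 scale, beside Kcnk12 at 4.47.
Among the genes called, the largest falls from N to A were those of Kcna1 (-3.1, adjusted p = 0.0322), Kcnq5 (-2.91, adjusted p = 0.0107), Kcna3 (-2.52, adjusted p = 0.0424) and Kcnab2 (-2.1, adjusted p = 0.000368). Kcna1 and Kcna3 lost their calls in 7 and 8 of the 12 fits that left out a library. From N to B the largest falls were those of Kcne4, of Kcng4, which had 13 to 26 counts in N libraries and 0 in all 4 B libraries (adjusted p = 0.00211), of Lrrc55 (adjusted p = 0.000518) and of Kcna3, known from lymphocytes, which had 29 to 72 counts in N libraries and 0 in 3 of 4 B libraries (adjusted p = 0.00138). Beside Kcna3, all 6 immune markers were called lower in B than in N, with sums of 459 to 673 CPM for N and 10.4 to 31.4 CPM for B, and their part in it was not tested.

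**Figure D5:**
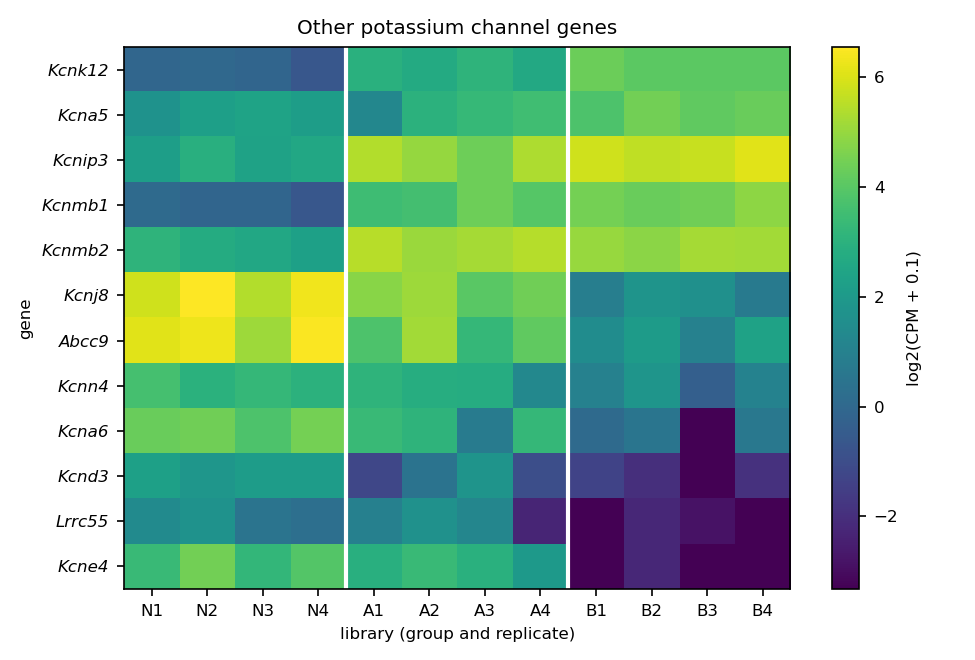
Levels of 12 other potassium channel genes in the 12 libraries, as log2(CPM + 0.1) by colour, with libraries in columns by group and replicate and white lines between groups. Kcnk12, Kcna5 and Kcnip3 are among the genes called higher in B than in A, the BK subunits Kcnmb1 and Kcnmb2 are high in A and B, and the lower rows from Kcnj8 to Kcne4 hold the 7 genes called lower in B than in A.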

How the data were processed

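Per the labels, an RNeasy mini plus kit was used for extraction and a SMARTER mRNA-Seq kit for the libraries. STAR 2.5.2b and DRAGEN, and the builds GRCm38 and GRCm39, are named per the submitters' processing notes. Their part in each table is not stated there. The authors' deposited values are, per the file headers, an estimated count and a TPM for every gene and library. The estimated counts deposited on GRCm39 were rounded, filtered with filterByExpr (17230 of 55417 genes left), scaled by TMM and fitted by group over all 12 libraries with edgeR 4.0.16 (glmQLFit, glmQLFTest) in R 4.3.3, with Benjamini-Hochberg adjustment at 0.05. CPM were computed from these counts. The deposited TPM were used to compare levels between genes. SEs were derived from the F statistic. P-values weigh a difference between groups against the spread between these libraries. The main fit and the permutation test of the ratio did not use the replicate pairs.

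The members, lists and tests were chosen with earlier results of these data known. Other channel genes were named by rule: the 4 highest and 4 lowest log2 changes among called genes of the list in each comparison, Kcnj8, Abcc9, the Kcne and Kcnmb genes and the 2 most alike genes of each member; 2 of the genes so named are not reported here. No 2 libraries of a group agreed within sampling noise (chi-square per gene at least 26).

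Replicate numbers were taken as pairs, since the labels give different mothers and Y-linked genes ranged from 112 to 156 CPM in replicate 1 and from 0.191 to 0.488 CPM in replicate 3 across all 3 groups. For each number, deviations of its A and B libraries from their group means correlated at 0.05, 0.16, 0.14 and 0.23. A fit with the block served as an alternative. Other alternatives were RLE factors, library totals alone, DESeq2 1.42.0, no filter, 10 counts in 8 libraries, the mm10 table, only the groups compared, and leaving out each library. The tests were checked on simulated counts.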

Additional observations from a re-analysis of the deposited data

Results flagged for a closer look

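In 33 sets of 4 libraries checked with Dixon's criterion for a library far from the rest, 3 passed its 95% critical value, and chance gives about 1 in 20. Kcnj11 was at 45 CPM in A replicate 2 and at 57.8 to 59.8 CPM in the other A libraries, a gap of 0.865 of the range. Kcnq1ot1 was at 61.7 CPM in N replicate 2 against 16.3 to 20 CPM (0.919 of the range). Kcnj11 counts were 3.86% of Abcc8 counts in B replicate 3 against 2.29% to 2.49% in the other B libraries (0.873 of the range).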

How the results depend on the processing

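With the replicate block, 1 of the 8 genes was called higher in B than in A, which was Kcnma1, in place of 0. Calls rose over all genes too: 1055 of 17230 were called higher in B than in A with the block, in place of 797. The block also ended the call of Kcnd3 in B against A and changed no other call among the 8 genes. With the replicate block, the ratio of Kcnj11 to Abcc8 gave log2 differences of -1.09 between N and A and -0.38 between A and B (exact sign-flip permutation, adjusted p = 0.25 each), where 4 pairs allow no p under 0.125. Fitting only the groups compared, 5 genes of the whole channel list were called lower in B than in A in place of 8. Lower calls over all genes fell too, to 1097 of 16059 from 1571 of 17230. Without A replicate 2 or B replicate 1, the change of Abcc8 in B against A turned to -0.04 and -0.03, and the range over all libraries left out was -0.04 to 0.13. Leaving out each library in turn, the members called lower in B against A numbered 1 to 2, and the ratio of B against A ran from -0.55 to -0.3. The channel list called higher in B against A numbered 1 to 5 (2 without A replicate 2, B replicate 1 or B replicate 3, and 1 without B replicate 4). In these fits, in the same order, 444 of 17610, 450 of 17640, 552 of 17634 and 473 of 17629 genes were called higher, in place of 797 of 17230. For the single genes the losses are given with their values. The cause was not tested. RLE factors, library totals alone, DESeq2, no filter, 10 counts in 8 libraries and the mm10 table changed the direction or the call of none of the 8 genes in any comparison. At 4 to 30 counts in B, Kcnj13 is the gene whose values depth limits most, with a coefficient of variation of 55.1% there.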
